A study of Mus musculus with 12 samples.

Results

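Molecular chaperones were examined in piriform cortex, the primary olfactory area of the cortex, from mice that carry a Huntington's disease allele. The set comprises the heat shock proteins of the HSP90, HSP70 and HSP110 families, the small heat shock proteins, the DnaJ proteins of classes A, B and C, the mitochondrial chaperonin and the subunits of the cytosolic chaperonin TRiC. Members were chosen by gene symbol alone, from the standard Dnaj, Hsp, Hspa, Hspb, Cct and Tcp1 names plus Cryab, and Hspa5 was left out. The pattern took 78 of the 48795 genes in the count table, under 77 symbols because Hspa14 is listed under 2 identifiers. Expression was high enough to test 72 of the 78.

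RNA was sequenced from 12 animals aged 12 months, all on a C57BL/6 background: 6 heterozygous Q140 knock-in mice and 6 wild type mice, with 3 males and 3 females of each genotype. The Q140 allele is a knock-in at mouse Htt with an expanded CAG repeat, carried by every cell, so the model is neither a tissue-specific nor a transgenic overexpression one, and the Q140 animals keep 1 wild type allele. The labels put all libraries on 1 plate in 2 columns of wells, and the animals' names carry different prefixes, RFckQ in 4 wild types and 1 Q140 animal, RFQ in 1 wild type and 3 Q140 animals, FMQ in 1 wild type and none in 2 Q140 animals. All 3 Q140 males and 1 wild type male are RFQ, and no female is, so that among Q140 animals sex and prefix cannot be told apart. The number after the prefix is shared by wild type 3 and Q140 animal 4 (both female) and by wild type 4 and Q140 animals 3 and 5 (all male). Wild types 1 and 5, both male, also share a number. What a prefix or number stands for is not given in the sources used here. Animals are numbered within a genotype only as names.

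Chaperones bind unfolded or partly folded proteins and prevent them from aggregating. HSP70 proteins work in cycles of ATP hydrolysis, which DnaJ proteins start by delivering a client and which HSP110 proteins and other exchange factors end by releasing nucleotide; HSP90 takes over clients such as kinases and steroid receptors, TRiC encloses actin, tubulin and other proteins in a folding chamber, and the small heat shock proteins hold unfolded proteins without ATP. Part of the set is transcribed at all times and part is induced by heat shock factor 1, which binds repeats of a short element in the promoters of its targets. HSP70, DnaJ proteins of class B and TRiC are known from other work to act on polyglutamine proteins such as mutant huntingtin.

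Total counts lay between 19587208 and 35198602 per animal, so that 3 counts corresponded to 0.0853 to 0.149 CPM (counts scaled by library size). Htt itself was lower in Q140, with the highest Q140 animal at 164 CPM and the lowest wild type at 179.8 CPM (log2 fold change -0.37, SE 0.0428, edgeR adjusted p = 0.000203), and the sex-linked genes matched the labelled sex in 12 of 12 animals. Markers of other cells were compared in the same libraries. Of 10 excitatory neuron markers 5 were lower in Q140 and none higher, and their summed level was 6613 to 8250 CPM in wild types against 5225 to 5739 CPM in Q140. Of 10 oligodendrocyte markers 4 were higher (Mog, Mag, Cnp and Ermn), with sums of 3562 to 5047 CPM against 4055 to 5797 CPM. Of 8 inhibitory neuron markers 3 were lower, of 7 astrocyte markers 1 was lower, of 7 microglia markers 1 was higher, and of 8 endothelial and pericyte markers, 5 oligodendrocyte precursor markers and 3 tested choroid plexus markers none passed. Of 8 striatal projection neuron markers 2 were lower (sums of 405 to 1521 CPM in wild types and 521 to 941 CPM in Q140), and of 3 tested ependymal markers none passed. The 8 meningeal markers had sums of 30.1 to 353 CPM in wild types and 144 to 366 CPM in Q140, and none passed. None of these neuronal, oligodendrocyte and meningeal markers was at 0 in any animal. In bulk tissue, fewer cells of a type and less RNA per cell cannot be told apart, and the part of these markers in the results below was not tested.

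The level of each gene per length, as FPKM (fragments scaled by gene length and library size), gives the order of abundance in the wild type cortex. Hsp90ab1, the constitutive cytosolic HSP90, stood far above the rest at 427 ± 13.7 FPKM (SD, n = 6). Hspa8, the constitutive cytosolic HSP70 that also uncoats clathrin vesicles, followed at 103 ± 5.14 FPKM, and Hsp90aa1, the stress-responsive HSP90, at 85.8 ± 2.69 FPKM. The highest TRiC subunit was Cct2 at 60.3 ± 1.29 FPKM, and the lowest was Cct3 at 11.7 ± 0.441 FPKM. Dnajc5, the cysteine string protein of synaptic vesicles, had 51.9 ± 1.24 FPKM, the small heat shock protein Cryab 51.1 ± 3.96 FPKM and Dnaja2, a class A cochaperone of cytosolic HSP70, 49.96 ± 1.33 FPKM, and these 3 lay within each other's spread. Hspa4 led the HSP110 family at 40.3 ± 1.26 FPKM, Hspd1 the mitochondrial pair at 32.5 ± 0.674 FPKM and Dnajb5 class B at 31.8 ± 4.14 FPKM. The heat-inducible HSP70 genes were low, with 4.34 ± 0.598 FPKM for Hspa1b and 2.81 ± 0.383 FPKM for Hspa1a, and so was Hspb1 at 1.52 ± 0.287 FPKM. Summed by class, the 2 HSP90 genes held 28.1% of all chaperone FPKM in wild types and the 26 class C DnaJ genes 20.6%, against 13.6% for the 11 HSP70 genes and 3.74% for the 9 small heat shock genes. Hspa8, Hsp90aa1, Hspd1, Hspb1, Hspa1a and Hspa1b share much sequence with other genes, which may shift these levels. Of the 50-base windows of the longest Hsp90aa1 transcript, 51.5% are found in Gm12346 (75701 reads, against 125016) and 36.8% in Gm5844 (20954 reads). For Hspd1, 42.8% are found in Hspd1-ps3 (13717 reads, against 32140). The other 4 are given below.

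**Figure D1:**
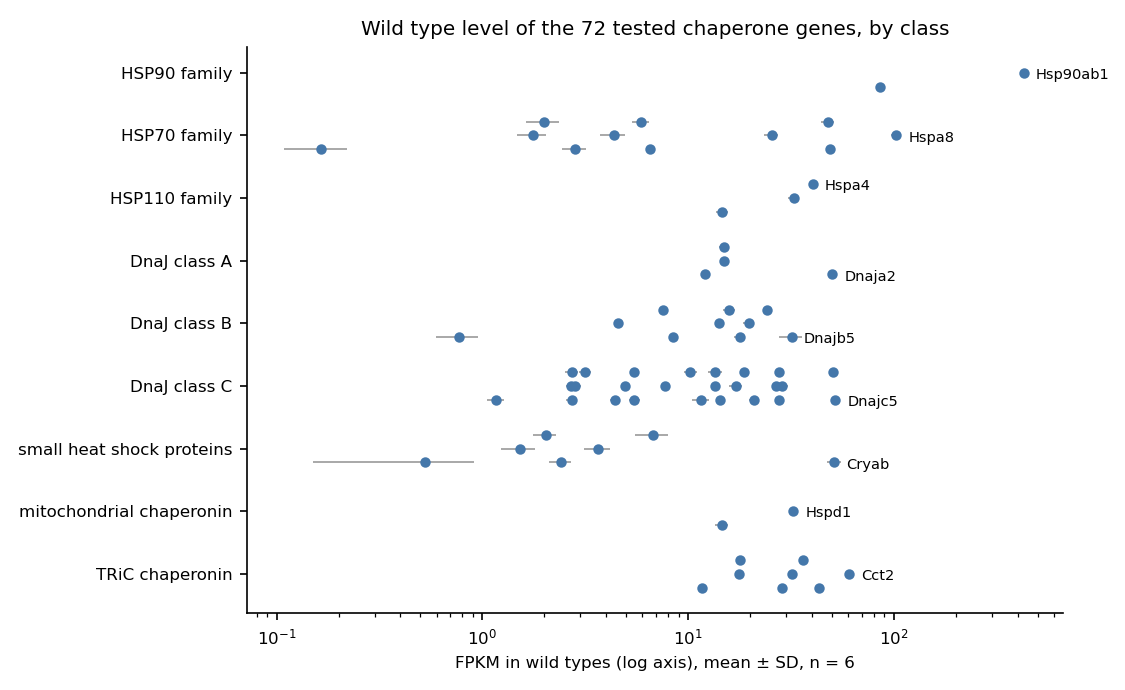
Deposited FPKM (log axis) of the 72 tested chaperone genes in wild types, 1 point per gene, with bars for the SD over 6 animals; points are offset within a class only so that they can be seen. Hsp90ab1 (427 FPKM) and Hspa8 (103 FPKM) stand to the right, and the highest gene of each class is named.

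The 6 genes that were not tested had few or no reads. Over all 12 animals together, Hspb7 had 99 reads, Dnajb13 had 58, Hspb9 and Dnajc22 had 3 each, Dnajb7 had 1 and Dnajb8 had 0. Where an animal had 0 reads of a gene, a level of up to 0.0853 to 0.149 CPM remains possible. Among genes at 5 CPM or more in wild types, the 66 chaperones varied between animals with a median coefficient of variation of 4.77%, and all 12218 genes with a median of 6.62%.

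Heat shock elements were looked for in the promoters, from 250 bases before to 50 bases after each annotated start (RefSeq, GRCm38.p6). Of the 77 symbols, 62 had at least 1 window, 81 windows in all, and of the genes called between genotypes Hspa8, Cryab and Cct4 had none. An element of 2 units was searched as GAANNTTC or TTCNNGAA, which read the same on both strands, and one of 3 units as GAANNTTCNNGAA or its reverse complement TTCNNGAANNTTC, which contains 2 overlapping elements of 2 units. The 2-unit letters were present in 20 of the 81 windows (24.7%), belonging to 18 genes, and in 15.1% of all 32851 windows. The 3-unit letters were present in 6 of the 81 windows (7.41%), belonging to Hspd1, Hspe1, Dnajb6 and Hsph1, and in 0.603% of all windows. The 2 windows of Dnajb6 overlap and hold the same element, as do the 2 of Hsph1, and Hspd1 and Hspe1 share theirs. These shares count windows, not separate sites. A match is a run of letters, not a measured binding site. The 250 bases before the start are printed for the genes called between genotypes that hold such letters (Hspb1, Dnajc10 and Hspa1b), for Hspa1a as the near copy of Hspa1b, and for Hspe1, which holds the longest run; they read 5′ to 3′ on the gene's strand, with 2-unit elements in capitals.
Hspb1 (chr5:135887669-135887918, plus strand): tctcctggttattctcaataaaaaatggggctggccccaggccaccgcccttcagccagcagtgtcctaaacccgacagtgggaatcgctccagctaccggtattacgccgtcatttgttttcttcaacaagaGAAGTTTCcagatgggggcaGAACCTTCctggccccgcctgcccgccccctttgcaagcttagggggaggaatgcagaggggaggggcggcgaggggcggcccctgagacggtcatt
Dnajc10 (chr2:80315216-80315465, plus strand): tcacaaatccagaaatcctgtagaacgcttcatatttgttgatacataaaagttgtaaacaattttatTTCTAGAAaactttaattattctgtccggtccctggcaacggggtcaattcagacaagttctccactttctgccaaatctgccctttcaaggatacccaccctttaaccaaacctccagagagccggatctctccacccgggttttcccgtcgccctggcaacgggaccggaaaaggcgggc
Hspa1a (chr17:34972157-34972406, minus strand): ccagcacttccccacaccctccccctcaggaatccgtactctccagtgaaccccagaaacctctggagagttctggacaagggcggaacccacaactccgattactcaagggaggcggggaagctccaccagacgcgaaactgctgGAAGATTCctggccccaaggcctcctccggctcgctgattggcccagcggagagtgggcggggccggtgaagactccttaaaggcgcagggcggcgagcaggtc
Hspa1b (chr17:34959239-34959488, minus strand): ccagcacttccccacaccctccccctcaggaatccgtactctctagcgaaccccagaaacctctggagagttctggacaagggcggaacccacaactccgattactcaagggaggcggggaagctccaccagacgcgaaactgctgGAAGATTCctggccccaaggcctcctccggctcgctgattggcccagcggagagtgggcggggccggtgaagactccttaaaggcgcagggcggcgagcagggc
Hspe1 (chr1:55087898-55088147, plus strand): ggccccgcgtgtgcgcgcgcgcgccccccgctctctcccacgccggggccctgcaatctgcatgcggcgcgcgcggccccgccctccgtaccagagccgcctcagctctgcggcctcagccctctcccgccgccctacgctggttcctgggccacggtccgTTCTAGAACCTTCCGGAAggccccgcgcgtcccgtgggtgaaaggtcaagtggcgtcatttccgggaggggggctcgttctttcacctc
Hspb1 holds 2 separate elements, from 117 to 110 and from 97 to 90 bases before its start. Hspa1a and Hspa1b hold 1 each, from 104 to 97 bases before the start, and their 250 bases differ at 3 positions. Dnajc10 holds 1, from 182 to 175 bases before the start. In Hspe1, 3 overlapping elements run from 89 to 72 bases before the start, at chr1:55088059-55088076, and the same bases lie in the window of Hspd1, its head-to-head neighbour on the minus strand, from 144 to 127 bases before the Hspd1 start. The windows of the called genes Cct3, Dnajb1, Dnajc16 and Hspa12a hold none of these letters.

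**Figure D2:**
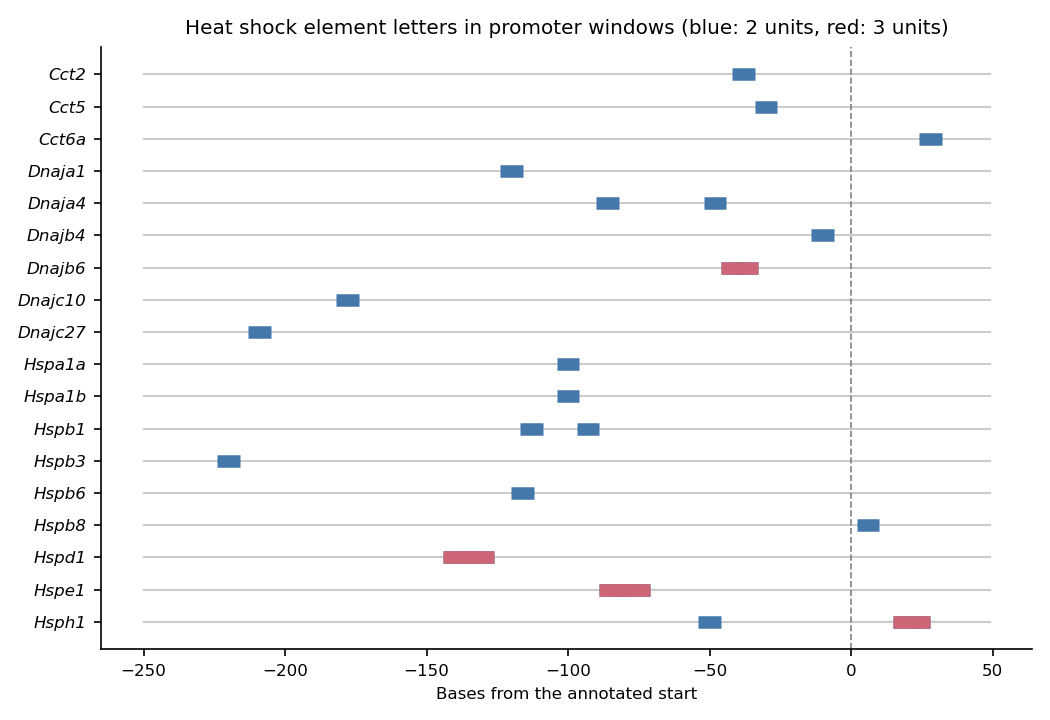
Position of heat shock element letters relative to the annotated start (dashed line) in 1 window for each of the 18 chaperone genes that hold them, grey lines being the searched windows. Blue blocks are 2-unit elements, red blocks are runs of 3 units, and most blocks lie before the start.

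Q140 was compared with wild type to find which chaperones differ at this age. Of the 72 genes tested, 5 were higher in Q140 and 5 lower, or 13.9%, beside 11.2% of all 17725 genes tested (4.5% higher, 6.69% lower; edgeR quasi-likelihood test with Benjamini-Hochberg adjustment over all genes). The higher genes were Hspa8, Hspb1, Cryab and the TRiC subunits Cct3 and Cct4. The lower genes were the inducible HSP70 Hspa1b, its DnaJ partner Dnajb1, the atypical HSP70 Hspa12a and the class C proteins Dnajc10 and Dnajc16. The median log2 fold change over the 72 genes was 0.04, beside 0.0045 over all genes tested, and 44 had a positive sign and 28 a negative one. Taken without sign, the median log2 fold change was 0.081 over the 72 genes and 0.105 over all genes tested. At an unadjusted p below 0.05 the count was 25 of 72, beside 26.7% of all genes. The normalization factors (TMM, trimmed mean of M values) were 0.970 to 0.996 in wild types and 0.998 to 1.04 in Q140, and with library totals in their place 14 chaperones were higher and 3 lower, so that 82.4% of the called chaperones were higher in place of 50%; the same change moved the share of higher genes among all called genes from 40.2% to 66.4%.

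**Figure D3:**
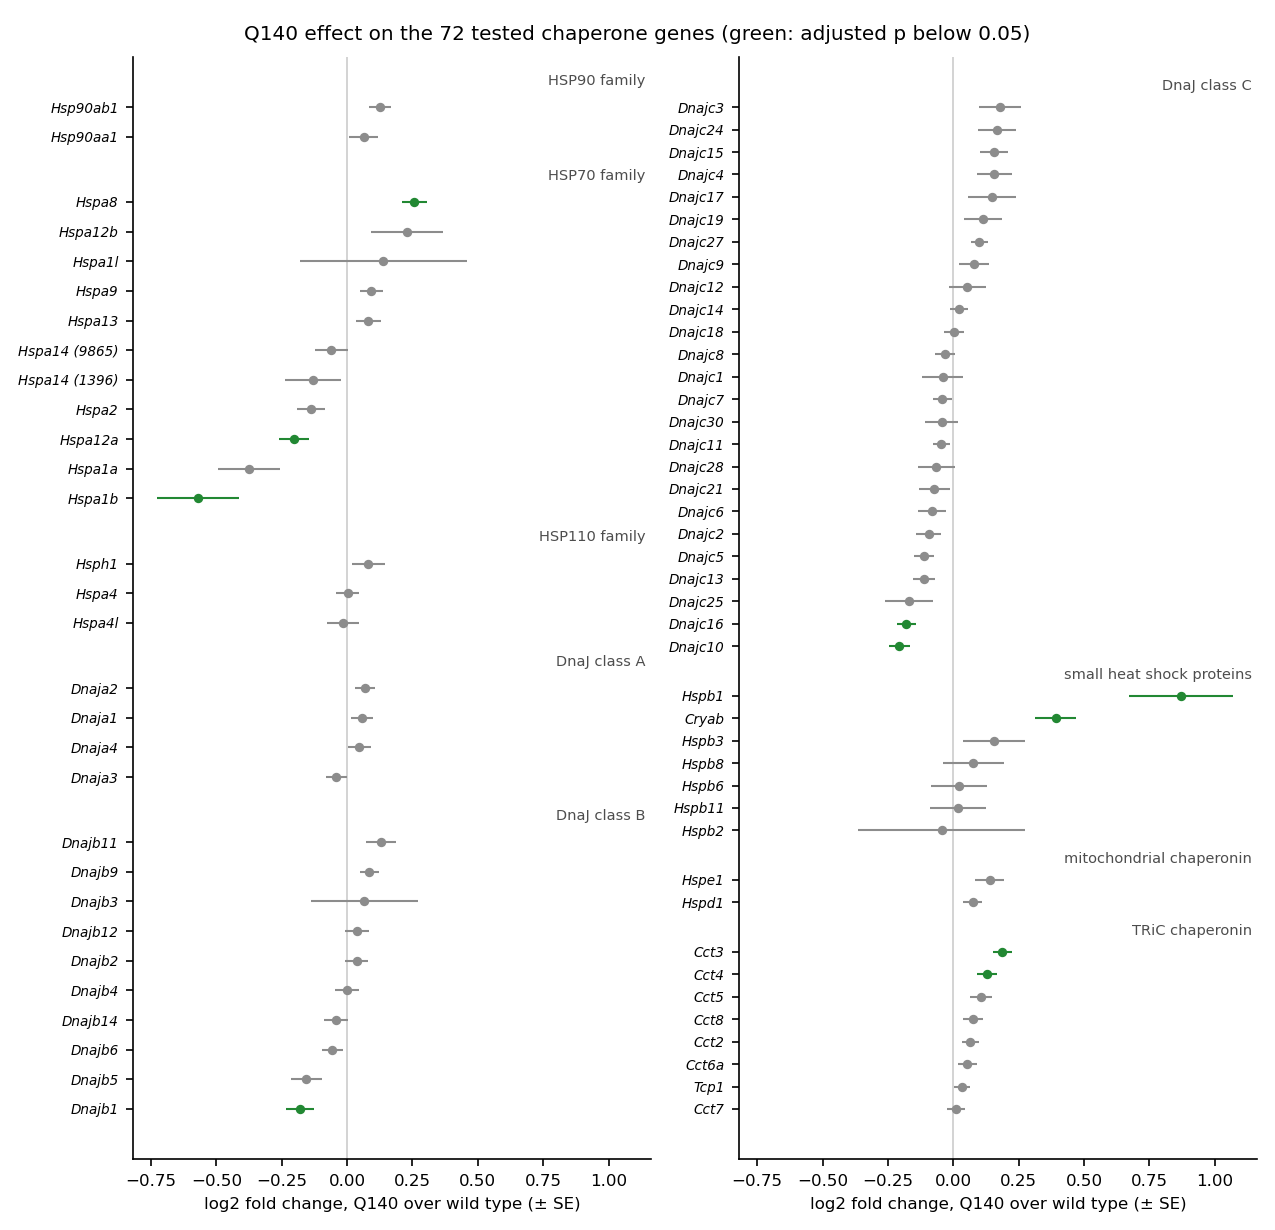
Log2 fold change of Q140 over wild type with its standard error for each of the 72 tested chaperone genes by class, green where the edgeR adjusted p was below 0.05; the 2 identifiers of Hspa14 are told apart by their last digits. The 10 green points run from -0.57 (Hspa1b) to 0.87 (Hspb1), and the 8 TRiC points all lie to the right of 0.

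The genotypes did not overlap at all in 4 chaperones, 2 higher and 2 lower, where 4.59% of all genes tested did not overlap (1.88% higher, 2.7% lower). Hspa8 had a lowest, median and highest level of 390, 439 and 450 CPM in wild types against 479, 510 and 593 CPM in Q140. Every Q140 animal was above every wild type, and the fitted level was 19.5% higher (log2 fold change 0.26, SE 0.0478, adjusted p = 0.00416). Hspa8 lies at chr9:40800984-40810087 (GRCm38), and 45.3% of the 50-base windows of its longest transcript are found in Gm15459 and 28.5% in Gm8355, so that reads of these 3 genes may have been exchanged. Gm15459 (86682 reads, against 171480 for Hspa8) had a log2 fold change of 0.23 (adjusted p = 0.00677) and Gm8355 (16376 reads) one of 0.27 (adjusted p = 0.0036). All 3 were higher by a like amount.

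Of the 8 TRiC subunits 2 rose and 6 did not pass. Cct3, at chr3:88297116-88321767, had 72.3, 76.7 and 78.8 CPM in wild types (lowest, median, highest) against 81.8, 86.0 and 89.8 CPM in Q140. The groups did not overlap, and the fitted level was 13.9% higher (log2 fold change 0.19, SE 0.0368, adjusted p = 0.00581). Cct4, at chr11:22990519-23003780, had 73.1, 77.1 and 80.1 CPM against 77.4, 83.9 and 88.7 CPM. Of its 6 Q140 animals 5 were above the highest wild type (log2 fold change 0.13, SE 0.0391, adjusted p = 0.0468). All 8 TRiC subunits had a positive sign, with a median log2 fold change of 0.07, as did 13 of 14 proteasome core subunits (median 0.06). The 8 signs were positive under every scaling tried, the median being 0.12 with library totals; Cct7 turned to -0.01 with the name prefix as a term and to -0.00027 without Q140 animal 5. Cct5 followed at 0.10 (SE 0.0419, adjusted p = 0.128), then Cct8 at 0.08, Cct2 at 0.07, Cct6a at 0.05, Tcp1 at 0.03 and Cct7 at 0.01, none of which passed. Summed per length, the 8 mRNAs stood at 248 ± 4.03 FPKM in wild types and 270 ± 9.03 FPKM in Q140 (n = 6 each, FPKM having no TMM scaling), with ranges of 242 to 253 and 258 to 281 FPKM that did not overlap. Divided by the TMM factors, the sums were 252 ± 4.62 and 265 ± 8.91 FPKM, and the ranges of 245 to 258 and 249 to 273 FPKM overlapped, with 5 of 6 Q140 animals above the highest wild type.

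Of the 7 tested small heat shock genes 2 rose, both with a wider spread in Q140 than in wild types. Cryab, alpha B-crystallin, which is abundant in oligodendrocytes and astrocytes, had 55.8, 61.2 and 66.9 CPM in wild types (lowest, median, highest) against 64.2, 82.3 and 92.4 CPM in Q140. Of the 6 Q140 animals 5 were above the highest wild type, and the fitted level was 31.2% higher (log2 fold change 0.39, SE 0.0787, adjusted p = 0.00673). Cryab lies at chr9:50751325-50756636, next to Hspb2 on the opposite strand, with which it shares 19.0% of its 50-base windows and which had 149 reads in all against 25557. Of the oligodendrocyte markers in the same animals, Mog was higher by 0.61, Mag by 0.49, Ermn by 0.48 and Cnp by 0.40 on the log2 scale, while the other 6 of the 10 did not pass, Mbp among them at 0.26. The part of oligodendrocyte RNA in the Cryab result was not tested.

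Hspb1, the mouse HSP25, at chr5:135887919-135889563, had the largest fold change of the set on few reads, 851 over all animals. Its level was 1.11, 1.66 and 1.97 CPM in wild types against 1.74, 2.89 and 4.21 CPM in Q140. Of the 6 Q140 animals 5 were above the highest wild type (log2 fold change 0.87, SE 0.201, adjusted p = 0.0141). The 3 highest were the 3 Q140 females. The 2 promoter elements printed above lie before the start of this gene. Of the 50-base windows of its transcript, 51.6% are found in Hsp25-ps1, which had more reads than Hspb1 itself (930) and a fold change of 0.40 in log2 units (SE 0.227, adjusted p = 0.282). Wild type animal 3, the lowest in Hspb1, had a summed meningeal marker level of 30.1 CPM, the lowest of all, and wild type animal 4, the highest wild type in Hspb1, one of 353 CPM. These are 2 picked wild types, and in Q140 animals the sums were 144 to 366 CPM. The part of the meningeal signal was not tested. The other 5 small heat shock genes had log2 fold changes of -0.04 to 0.16, and none passed. Leaving out wild types 3 and 6 together ended the calls of Cryab (log2 fold change 0.31, adjusted p = 0.0544) and Hspb1 (0.61, adjusted p = 0.0942).

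**Figure D4:**
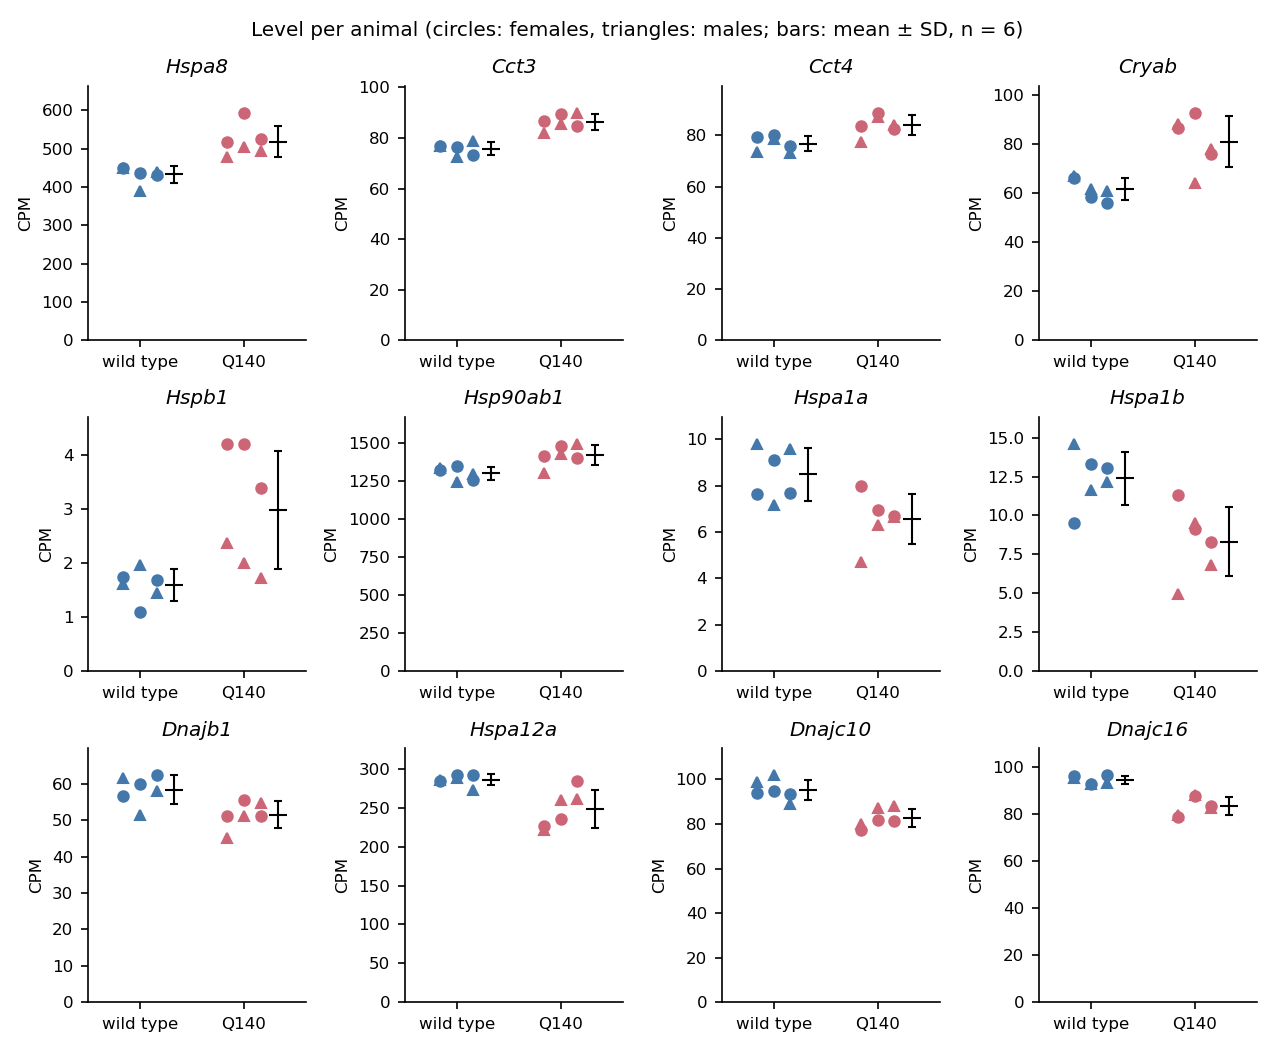
TMM-scaled CPM of 12 chaperone genes in each animal (circles females, triangles males), with mean and SD over 6 animals per genotype beside the points; every axis starts at 0. Hspa8 and Cct3 are higher and Dnajc10 and Dnajc16 lower in Q140 with no overlap, Hspb1 is above 3 CPM only in the 3 Q140 females, and Q140 animal 3, the lowest triangle, is lowest in Hspa1a, Hspa1b and Dnajb1.

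The heat-inducible HSP70 genes had the opposite sign, and 1 of the 2 passed. Hspa1a and Hspa1b encode nearly the same protein and lie side by side at chr17:34969190-34972156 and chr17:34956436-34959238, with the near-identical promoters printed above. Hspa1b had 9.52, 12.6 and 14.6 CPM in wild types (lowest, median, highest) against 4.95, 8.70 and 11.3 CPM in Q140. Of the 6 Q140 animals 5 lay below the lowest wild type, and the fitted level fell by 32.7% (log2 fold change -0.57, SE 0.156, adjusted p = 0.0311). Hspa1a had 7.15, 8.39 and 9.78 CPM against 4.69, 6.67 and 7.98 CPM, also with 5 of 6 Q140 animals below the lowest wild type (log2 fold change -0.38, SE 0.119, adjusted p = 0.0566). It lay just outside the threshold, and passed it with DESeq2 (adjusted p = 0.0236). Since 58.8% of the 50-base windows of Hspa1a are found in Hspa1b and 62.3% of those of Hspa1b in Hspa1a, the 2 genes are not separate measurements. Without Q140 animal 3, which was lowest in both, Hspa1b was at -0.45 (adjusted p = 0.0526).

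Dnajb1, the class B DnaJ protein that works with inducible HSP70, had 51.4, 58.9 and 62.3 CPM in wild types against 45.2, 51.2 and 55.5 CPM in Q140. The groups overlapped, with 4 of 6 Q140 animals below the lowest wild type (log2 fold change -0.18, SE 0.0542, adjusted p = 0.0463). Of the other stress-responsive members, Hsp90aa1 and Hsph1 did not pass. Hsp90aa1 had 330, 342 and 357 CPM against 305, 360 and 404 CPM (log2 fold change 0.06, SE 0.0565, adjusted p = 0.512). Its reads may have been exchanged with those of Gm12346 (log2 fold change 0.03, adjusted p = 0.829) and Gm5844 (0.10, adjusted p = 0.325). Hsph1, an HSP110 exchange factor for HSP70, had 210, 244 and 256 CPM against 211, 247 and 309 CPM (log2 fold change 0.08, SE 0.0640, adjusted p = 0.455). Hsp90aa1 and Hsph1 both spread more widely in Q140 than in wild types. Of the 7 heat-inducible members, Hspb1 and Cryab were thus higher, Hspa1b and Dnajb1 lower, and Hspa1a, Hsph1 and Hsp90aa1 did not pass. The animals were not ordered alike in them: Q140 animal 3 was the lowest of all 12 in Hspa1a, Hspa1b, Dnajb1 and Hsp90aa1, while Q140 animal 2 was the highest in Hspb1, Hsph1 and Cryab. Hsf1, which encodes heat shock factor 1, stood at 35.5 ± 2.77 CPM in wild type and 35.5 ± 3.33 CPM in Q140 animals (log2 fold change 0.0027, adjusted p = 0.984), and of 6 tested heat shock factor genes none passed or had an unadjusted p below 0.05.

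The remaining lower genes are not among the heat-inducible members. Dnajc10, an endoplasmic reticulum DnaJ protein that reduces disulfide bonds, had 89.2, 94.3 and 102 CPM in wild types against 77.3, 81.6 and 87.9 CPM in Q140. Every Q140 animal was below every wild type, and the fitted level fell by 13.4% (log2 fold change -0.21, SE 0.0406, adjusted p = 0.00573). Dnajc16, a membrane-anchored DnaJ protein, had 92.8, 94.4 and 96.6 CPM against 79.1, 83.0 and 88.2 CPM, again with no overlap (log2 fold change -0.18, SE 0.0372, adjusted p = 0.00793). Hspa12a, a distant HSP70 relative, had 273, 287 and 292 CPM against 221, 247 and 284 CPM. Of its Q140 animals 5 lay below the lowest wild type, and Q140 animal 4 lay among the wild types (log2 fold change -0.20, SE 0.0571, adjusted p = 0.0346). No 50-base window of the longest transcripts of these 3 genes was found in another gene. Exons of Hspa12a overlap those of Eno4, on the opposite strand, by 166 bases. The excitatory neuron markers in the same animals included Slc17a7 at -0.34 and Camk2a at -0.42 on the log2 scale (adjusted p = 0.0033 and 0.00295), and their part in these results was not tested. Dnajc10, Dnajc16 and Hspa12a lie at chr2:80315466-80354043, chr4:141760189-141790931 and chr19:58795750-58943654.

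Class by class, the other members did not pass the test. Of the 25 tested class C genes, 11 had a positive and 14 a negative sign, with a median of -0.04 and no gene called higher; Dnajc5, lower in 4 of 6 Q140 animals than in any wild type, came to -0.11 on the log2 scale (with SE 0.0372, adjusted p = 0.0706), and passed with DESeq2 (adjusted p = 0.019) and voom (0.039). The 10 class B genes were split 5 and 5, and the 4 class A genes ranged from -0.04 to 0.07, with Dnaja2 at 0.07 (SE 0.0383, adjusted p = 0.275). Dnajb6 and Dnajb2, 2 class B proteins known as suppressors of polyglutamine aggregation and named here after their values were seen, were at -0.06 (SE 0.0409, adjusted p = 0.403) and 0.04 (SE 0.0441, adjusted p = 0.64). The 11 HSP70 entries had 5 positive and 6 negative signs, and the 3 HSP110 genes ranged from -0.02 to 0.08, with Hspa4 at 0.0019 (SE 0.0434, adjusted p = 0.984). Hsp90ab1 had 1243, 1311 and 1349 CPM against 1307, 1422 and 1494 CPM, with 5 of 6 Q140 animals above the highest wild type (log2 fold change 0.13, SE 0.0423, adjusted p = 0.0693). It stayed outside the threshold, but passed it with DESeq2 (adjusted p = 0.0161), with library totals (log2 fold change 0.17, adjusted p = 0.0158) and without Q140 animal 3 (0.15, adjusted p = 0.036). Hspd1 and Hspe1, the mitochondrial chaperonin and its lid, which share the promoter element above, had log2 fold changes of 0.07 (SE 0.0361, adjusted p = 0.207) and 0.14 (SE 0.0560, adjusted p = 0.128). Reads of Hspd1 may have been exchanged with those of Hspd1-ps3, which was at 0.10 (adjusted p = 0.272).

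The calls differed in how far they rest on single settings. Over 28 alternatives, Hspa8, Cct3, Dnajc10 and Dnajc16 passed in 26 each, Cryab and Hspb1 in 25, Hspa1b in 17, Hspa12a in 12, Cct4 in 11 and Dnajb1 in 8, and no sign changed in any of the 10. Leaving out 1 animal ended the call of Hspa1b for Q140 animals 2, 3, 4 and 6 and wild types 1, 3 and 5 (adjusted p 0.0526 to 0.0746), and Hspa12a passed only without wild type 5 or Q140 animal 4, 5 or 6 (otherwise 0.0541 to 0.0866). Cct4 passed only without Q140 animal 3 or wild type 4 (otherwise 0.0547 to 0.112), and Dnajb1 only without Q140 animal 6 or wild type 4 (otherwise 0.0515 to 0.113). With the name prefix as a term none of the 10 passed (Hspa8 adjusted p = 0.0588, Dnajc10 0.0906, Cct3 0.129), the 2 genotypes being unevenly spread over the prefixes. Within prefix RFckQ (4 wild types, 1 Q140 animal) 9 of the 10 kept their sign, Hspa12a being at 0.003, and within prefix RFQ (1 wild type, 3 Q140 animals) 10 of 10 did, as they did within plate column 8 and within plate column 9. The 10 genes were called from these same animals, so the kept signs are no separate support. Hspa8, Cct3, Dnajc10 and Dnajc16, whose genotypes do not overlap, keep their sign in any such split. The RFQ ratios rest on wild type 4 alone, which was low in Hspa8. The log2 ratio of Hspa8 was 0.24 and 0.33 within the 2 prefixes and 0.25 and 0.24 within the 2 columns, that of Cct3 0.13, 0.24, 0.16 and 0.23, that of Dnajc10 -0.21, -0.26, -0.26 and -0.12, and that of Dnajc16 -0.18, -0.15, -0.20 and -0.14. Hspb1 had 1.197 and 0.06 within the prefixes; within column 8 its means were 1.49 and 3.55 CPM, and within column 9 they were 1.70 and 1.87 CPM. These splits also divide the sexes: the Q140 animal of prefix RFckQ is female and those of RFQ are male, and column 8 holds all 3 Q140 females and 1 Q140 male, column 9 only Q140 males.

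The sexes were then taken apart, with 3 animals of each genotype and sex; since every Q140 male and no Q140 female has the prefix RFQ, a difference between Q140 males and females cannot be told apart from one between prefixes. In females 5 chaperones were higher (Hspa8, Cct3, Cryab, Hspb1 and Dnajc3) and 2 lower (Dnajc10 and Dnajc16), beside 7.05% of all genes called in females (2.83% higher, 4.21% lower), and 20 had an unadjusted p below 0.05, beside 23.7%. In males none of the 72 passed, beside 1.4% of all genes (0.44% higher, 0.959% lower); 14 had an unadjusted p below 0.05 in males, beside 16.6% of all genes, and DESeq2 called 0 higher and 2 lower. The test of the effect in males against that in females passed in none of the 72 genes, nor in any of all 17725 (0% called), and 5 of the 72 had an unadjusted p below 0.05 beside 9.21% of all genes; DESeq2 called 15 and 10 genes in the 2 directions and no chaperone. No chaperone was thus shown to respond differently in the 2 sexes. Dnajc3, an endoplasmic reticulum DnaJ protein that is induced by unfolded proteins there, had the smallest p of that test. It was at 56.8 ± 1.41 CPM in wild type females and 75.3 ± 7.70 CPM in Q140 females (SD, n = 3; log2 fold change 0.41, SE 0.0785, adjusted p = 0.0104). In males it was at 64.9 ± 3.64 and 62.5 ± 5.40 CPM (-0.05, SE 0.0792, adjusted p = 0.803). The difference was -0.46 (SE 0.111, adjusted p = 0.471). Leaving out Q140 animal 2 took the counts in females to 1 higher and 0 lower. The call of Hspb1 in females held without any 1 animal, that of Dnajc3 ended without Q140 animal 2 (adjusted p = 0.0632), that of Hspa8 without Q140 animal 2, wild type 3 or wild type 6 (0.0502 to 0.0908), and those of Cryab, Cct3, Dnajc10 and Dnajc16 without either of Q140 animals 1 and 2 or of wild types 3 and 6, among others (0.0505 to 0.153).

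**Figure D5:**
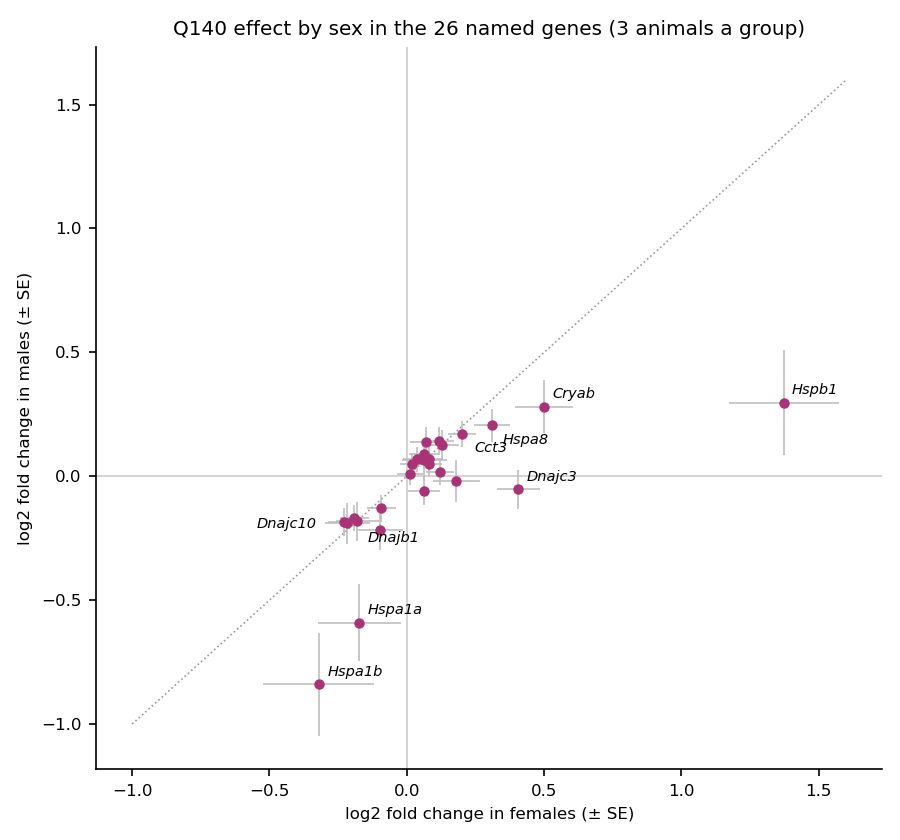
Log2 fold change of Q140 over wild type in females (x) against males (y) for the 26 chaperone genes that the text describes by rule, with standard errors; the dotted line marks equal effects. Hspb1 (1.37 in females, 0.30 in males) lies farthest from the line, Dnajc3 to its right, and Hspa1b (-0.32, -0.84) below it; no difference passed its own test.

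Hspb1 was at 3.94 ± 0.471 CPM in Q140 females and 2.04 ± 0.324 CPM in Q140 males (SD, n = 3), and at 1.51 ± 0.354 and 1.68 ± 0.265 CPM in wild type females and males. The log2 fold change was 1.37 in females (SE 0.1995, adjusted p = 0.0026) and 0.30 in males (SE 0.212, adjusted p = 0.529), and the difference between them was -1.08 (SE 0.292, adjusted p = 0.471). Hspa8 was 0.31 higher in females (SE 0.0661, adjusted p = 0.016) and 0.21 in males (SE 0.0662, adjusted p = 0.144). Cryab was 0.50 higher in females (SE 0.106, adjusted p = 0.0155) and 0.28 in males (SE 0.107, adjusted p = 0.209). Hspa1b had the larger value in males, -0.84 (SE 0.209, adjusted p = 0.0686), against -0.32 in females (SE 0.202, adjusted p = 0.366). Between males and females of both genotypes, 1 chaperone of 72 passed, lower in males, beside 0.654% of all genes (0.457% lower in males). Dnajb5, a class B protein, was at 211 ± 7.12 CPM in wild type females, 173 ± 24.4 in wild type males, 198 ± 8.82 in Q140 females and 149 ± 1.82 in Q140 males (SD, n = 3; log2 fold change of males over females -0.35, SE 0.0587, adjusted p = 0.0142). Without Q140 animal 1 it no longer passed (adjusted p = 0.0511). The values followed the prefix: the 4 RFQ animals, all male, lay between 145 and 151 CPM, and the other 8 at 186 CPM or more, with the 2 RFckQ males at 186 and 188 CPM. With the prefix as a term, an alternative added after the data were seen, the log2 fold change of males over females was -0.14 (SE 0.0633, adjusted p = 0.999).

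Genes that work with these chaperones were read from lists, beside 4.5% of all genes higher and 6.69% lower, and 9086 positive against 8639 negative signs. Of 31 cochaperones of HSP70 and HSP90, 4 were higher and 1 lower in Q140, with a median log2 fold change of 0.04. Ahsa1, which stimulates the HSP90 ATPase, had 75.4 ± 2.18 CPM in wild type animals against 83.6 ± 4.44 CPM in Q140 ones (SD, n = 6; log2 fold change 0.15, adjusted p = 0.0185), and its relative Ahsa2 29.1 ± 1.48 against 33.7 ± 3.02 CPM (0.21, adjusted p = 0.0297). Fkbp4, an HSP90-bound prolyl isomerase, was at 0.18 (adjusted p = 0.0225) and Tomm34, which joins HSP70 and HSP90 in mitochondrial import, at 0.15 (adjusted p = 0.0192). Sgtb, a neuronal cochaperone of HSP70 named here after its value was seen, was lower (161 ± 8.25 against 137 ± 15.1 CPM, log2 fold change -0.24, adjusted p = 0.031). Of 9 tested partners of TRiC, all had a positive sign and 1 passed, the prefoldin subunit Vbp1 (42.8 ± 2.26 against 48.8 ± 2.91 CPM, log2 fold change 0.19, adjusted p = 0.0262). Of 16 endoplasmic reticulum chaperones 3 were higher, P4hb at 0.20 (adjusted p = 0.0109), Pdia3 at 0.22 (adjusted p = 0.0221) and Erp29 at 0.14 (adjusted p = 0.0367), with 15 positive signs and a median of 0.18. Of 14 proteasome core subunits 1 was higher (Psmb4, 0.12, adjusted p = 0.0288), with 13 positive signs and a median of 0.06. Of 7 genes for disaggregation and mitochondrial proteases none passed, 1 having an unadjusted p below 0.05.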

How the data were processed

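The authors deposited whole-number read counts per gene, not normalized, and FPKM values that follow from those counts: over 15054 genes, the gene length that the 2 tables imply varied between animals by a coefficient of variation of at most 5.56e-09. Per the labels' protocols, RNA was extracted with a Qiagen RNeasy kit and libraries made with a stranded TruSeq preparation. Per the submitters' processing notes, STAR 2.7.5c, SAMtools 1.10 and HTSeq 0.12.3 were used with GRCm38 and mm10. Whether counting used strand, and which annotation release, is not given in the sources used here; overlapping and antisense genes cannot be told apart by their reads.

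The tests on counts used edgeR 4.0.16 under R 4.3.3 (quasi-likelihood test, two-sided, TMM, default expression filter by genotype, sex as covariate), which kept 17725 genes. Benjamini-Hochberg adjustment ran over all of them, with a threshold of 0.05. Effects within a sex and their difference were contrasts in a model of 4 groups over 12 animals, and the test of males against females had genotype as its covariate. CPM uses TMM-scaled library sizes. Each library is a separate animal, and no 2 libraries shared the same count in more than 1.53% of tested genes. Coordinates came from GENCODE M21 (GRCm38), which matched 48435 of 48795 identifiers and all 78 chaperone entries, and promoters from RefSeq (GRCm38.p6).

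The members and gene lists were chosen with earlier results of these data known. Named genes were those past the threshold, the most abundant of each class, the heat-inducible members, all TRiC subunits and those called in a sex contrast; other lists gave up to 4 called genes by smallest p. Sgtb, Dnajb6, Dnajb2, Hspe1, the near copies and single marker genes were named after their values were seen. The value of 1 marker gene is not reported here. Alternatives were DESeq2 1.42.0, voom in limma 3.58.1, log2(FPKM + 0.1) and log2(FPKM + 1), other scalings and filters, plate column or name prefix as a term, left-out animals and, added after the data were seen, robust edgeR, offsets for length and GC content, name number as a block and, for sex, prefix as a term.

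On simulated counts with 200 changed genes among 17572, the genotype test recovered 49.4% of 1.25-fold, 69.4% of 1.5-fold and 91.8% of 2-fold changes, with 7 false calls of 144. On the data the same test called 1982 genes. On counts simulated in the same way, the test in females recovered 22.1%, 50% and 82%, and that in males 15.6%, 54.8% and 78.7%. The test of the difference between the sexes recovered 1.3%, 12.9% and 59%. Each of these simulations held only the effect tested and none of prefix or plate column, so the rates may not hold for the calls above.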

Additional observations from a re-analysis of the deposited data

Results flagged for a closer look

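Among the named chaperones, 52 groups of 6 animals were examined for an animal set apart from the others of its genotype (by Dixon's ratio of gap to range, whose limit chance passes in about 1 group in 20), and 4 were found. Wild type animal 4 was low in Hspa8 at 390 CPM, the next wild type being at 432 CPM and the highest at 449.6 CPM. The same animal was low in Hsph1 at 209.9 CPM, the next being at 240 CPM and the highest at 256 CPM. Q140 animal 3 was low in Cct2 at 118.7 CPM, below the next Q140 animal at 125.9 CPM. Wild type animal 5 was low in Cct5 at 94.6 CPM, below the next wild type at 103 CPM.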

How the results depend on the processing

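Of the 28 alternatives to the comparison of Q140 with wild type, 12 left out 1 animal each, and none changed the sign of a called chaperone. Library totals alone gave 14 chaperones higher and 3 lower, and 1624 genes higher. Log2(FPKM + 0.1) gave 17 and 3 (1570 genes higher, 751 lower) and log2(FPKM + 1) 18 and 3 (1568 and 743); none of these 3 settings has TMM scaling, and they moved the median log2 fold change of all genes from 0.0045 to 0.05, 0.05 and 0.04. Voom gave 8 chaperones higher, plate column as a term 3 lower, and the added length and GC offsets 2 lower. Name prefix as a term gave 0 higher and 0 lower (33 genes higher, 101 lower). Leaving out wild types 3 and 6 together gave 2 and 2 (300 and 562 genes), the 2 higher being Hspa8 and Cct3 and the 2 lower Dnajc10 and Dnajc16. DESeq2 gave, in males, 225 genes higher, 463 lower and 2 chaperones lower, for the difference between the sexes 15 genes above and 10 below 0, and for males against females 143 and 207 genes. The causes of these shifts were not tested.

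With 1 animal left out, chaperones higher in Q140 numbered 4 to 6 and lower 2 to 6, the lower count being 2 without Q140 animal 2, Q140 animal 3, wild type 1 or wild type 3, and 3 without wild type 2, wild type 5 or Q140 animal 4. Genes higher numbered 412 to 1074 and lower 727 to 1430, both lowest without Q140 animal 2. In females the counts were 1 to 6 and 0 to 2 chaperones and 82 to 587 and 146 to 843 genes, again lowest without Q140 animal 2, except that the lower chaperones were 0 also without Q140 animal 1, wild type 2 or wild type 3. In males they were 0 to 1 and 0 to 2 chaperones and 9 to 279 and 32 to 468 genes, lowest without wild type 1 and highest in genes without Q140 animal 5. The difference between the sexes had 0 to 2 genes in each direction, and males against females 13 to 40 genes higher, 32 to 106 lower and 0 to 1 chaperones lower. For males against females, prefix as a term gave 5 genes higher, 2 lower and 0 chaperones lower. The numbers in the animals' names that both genotypes hold are 2, over 5 animals. With that number as a replicate block, added after the data were seen (3 residual degrees of freedom) 1 gene was higher and 0 lower, with 0 chaperones higher and 0 lower. Deviations from the means by genotype and sex correlated at -0.20 between wild type 3 and Q140 animal 4, and at 0.08 and 0.11 between wild type 4 and Q140 animals 5 and 3. Between wild type and Q140 animals of different number the values ran from -0.25 to 0.34. These correlations therefore cannot show whether animals of the same number are related. Wild types 1 and 5 were not compared in this way. What such animals share beyond a number is not known. The fewest reads among tested chaperones were those of Hspb2 (149, SE 0.320), Hspa1l (156, SE 0.320) and Dnajb3 (298, SE 0.205), and counts say nothing of protein.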
